A study of Mus musculus with 137 samples.

Results

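The villus of the mouse duodenum was compared between animals that drank water with 180 ppm hexavalent chromium, Cr(VI), for 7 days and animals that drank water without it, a time point called day 8. The libraries were taken by their labels alone, as every villus library of day 8 at 180 or 0 ppm: 9 of the 66 villus libraries of the series, 4 from exposed mice (526, 528, 529 and 530) and 5 from untreated mice (46, 47, 48, 49 and 50). The mice were female B6C3F1 animals, wildtype and without any other treatment, and the exposed animals received the chromium as sodium dichromate dihydrate in drinking water that they took freely. Each library held RNA from the villus part of a formalin-fixed, paraffin-embedded duodenal section of a single mouse, scraped into lysis buffer after the crypts had been taken from the slide. The whole study holds crypt and villus libraries, 7 concentrations of Cr(VI) and exposures of 7 or 90 days. RNA was measured with TempO-Seq, in which a pair of short oligonucleotides is joined on each target transcript and the joined product is sequenced and counted. A scraped villus holds enterocytes with goblet cells, lymphocytes, connective tissue, vessels and muscle fibres, and its RNA is a sum over them, so that fewer cells of a type and less RNA per cell cannot be told apart in these data.

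The villus is the absorbing surface of the small intestine. Its enterocytes are born in the crypt, climb the villus within days and switch genes on and off by height, with sugar, peptide and lipid uptake along the shaft and purine and lipoprotein genes toward the tip. Cr(VI) is taken up through anion transporters, is reduced inside the cell and leaves Cr(III) bound to proteins and DNA, and the duodenal villus is the first absorbing tissue that swallowed Cr(VI) meets.

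Depth was alike in the groups, with 2405384 to 4054136 counts in the control villi and 2589836 to 3493637 in the exposed villi, and 13832 to 20394 and 14035 to 16713 probes with at least 1 count. Levels are given below as CPM, the counts of a gene relative to the total of its library, after scaling by the trimmed mean of M values, and a mean ± SD covers the 5 control and 4 exposed libraries. The summed level of 10 villus enterocyte markers was 49879 to 95950 CPM in the control villi and 29712 to 63796 CPM in the exposed villi, a difference that did not pass after adjustment over 16 marker lists (two-sided exact permutation test, p = 0.0476, adjusted p = 0.381), and 2 of the 10 were called lower. The lowest control was mouse 48, and the other 4, at 73549 to 95950 CPM, lay above every exposed villus. Of the 10, the probe of *Sis* had at most 3 counts in all 9 libraries. The control villus of mouse 48 stood apart, with 23497 CPM of Paneth cell markers, which belong to the crypt base, against 2781 to 10213 CPM in the other control villi, and with the lowest enterocyte sum of the controls. Pancreatic acinar markers ran from 34.3 to 42053 CPM in the control and from 112 to 12629 CPM in the exposed villi, with 0 of 14 called. Several counts of called genes are given with and without the library of mouse 48. Values of single genes include it unless stated.

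**Figure D1:**
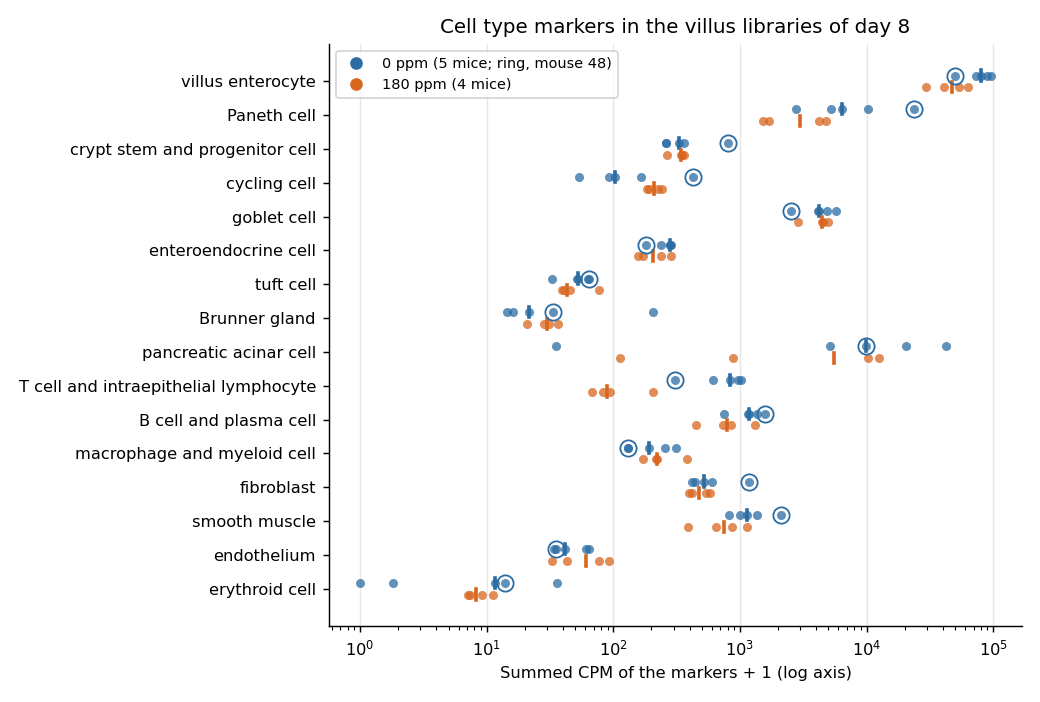
Summed level of the marker genes of 16 cell types and compartments in each villus library (CPM + 1 on a log axis), with the 5 control and 4 exposed libraries as points and the group median as a bar. The T cell and intraepithelial lymphocyte sum is the list whose groups lie apart, at 307 to 1023 CPM in the controls and 66.5 to 203 CPM in the exposed villi, and the pancreatic acinar sum spreads over the widest range in both groups.

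Exposure to 180 ppm changed 1389 of the 19020 genes tested, 7.30% of them, with 591 genes higher and 799 lower (edgeR quasi-likelihood test, adjusted p below 0.1, with a gene counted once if any of its probes passed). Taking for each gene the probe with the most counts, 536 of 18998 genes were higher (2.82%) and 697 lower (3.67%), and the median log2 fold change over all of them was -0.09. The 4 exposed villi all lay above the 5 control villi for 333 genes (1.75%) and all below for 386 (2.03%). A gene with several probes can count in both directions. Without mouse 48, 1675 genes passed, without mouse 528, 960, and a fit of the 9 libraries alone gave 670. On simulated counts with 200 of 26365 probes changed, 40.5% of the calls of this fit at 0.1 were unchanged probes. At an adjusted p below 0.01 it was 9.64%. These shares depend on the number of changed probes and on the simulated spread, which came from the estimates that the legacy form uses. They are not error rates of the real calls. A gene called near the threshold is taken as weaker evidence than its p states. The legacy form of the fit had 7% at 0.1 on the same simulated counts. In the real libraries it called 1107 genes, among them 130 of the 142 called genes named here.

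The gene with the lowest adjusted p among those that fell was *Pck1*, phosphoenolpyruvate carboxykinase, the entry enzyme of gluconeogenesis (chr2:173153048-173159273 on GRCm38). It stood at 959, 426, 334, 1050.4 and 956 CPM in the control villi and 2.29, 4.98, 29.4 and 14.7 CPM in the exposed villi. The groups were far apart, and the lowest control, mouse 48, was above the highest exposed villus. The change was 57.6-fold lower (log2 fold change -5.85, SE 0.65, adjusted p = 1.97e-11). *Selenop*, a secreted protein that carries selenium (chr15:3268547-3280508), measured 1930.5, 1914, 684, 2733 and 2233 CPM in the control villi and 38.3, 51.5, 250.0 and 133 CPM in the exposed villi. Its controls again lay above every exposed villus, with mouse 48 the lowest control and mouse 529 the highest exposed, and it was 16.1-fold lower (log2 fold change -4.01, SE 0.48, adjusted p = 7.96e-10).

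A further pair of genes that steroid hormones are known to induce was among the 10 that fell with the smallest adjusted p. *Sgk1*, serum and glucocorticoid regulated kinase (chr10:21882184-21999903), measured 153, 114, 24.8, 117 and 79.9 CPM in the control villi and 7.21, 1.66, 6.32 and 0 CPM in the exposed villi, and was 23.4-fold lower (log2 fold change -4.55, SE 0.61, adjusted p = 2.48e-08). *Tsc22d3*, which encodes the glucocorticoid-induced leucine zipper protein (chrX:140539528-140600659), measured 371, 374, 234, 394 and 263 CPM in the control villi and 27.5, 42.9, 83.3 and 69.6 CPM in the exposed villi, and was 5.83-fold lower (log2 fold change -2.54, SE 0.34, adjusted p = 3.6e-08). In both, mouse 48 gave the lowest control value, still above all 4 exposed villi.

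The other genes that fell and ranked first by adjusted p, chosen with non-overlapping libraries and a mean of at least 10 CPM in either group, were enzymes and surface proteins of differentiated villus cells and a lymphocyte protease. The cytochrome P450 *Cyp2b10* was 32.0-fold lower (log2 fold change -5.00, SE 0.67, adjusted p = 3.2e-08), the soluble epoxide hydrolase *Ephx2* was 6.30-fold lower (log2 fold change -2.66, SE 0.36, adjusted p = 3.6e-08), and thymidine phosphorylase, *Tymp*, was 8.13-fold lower (log2 fold change -3.02, SE 0.42, adjusted p = 9.66e-08). *Ceacam20*, a glycoprotein of the brush border, went from 253 ± 114 to 14.7 ± 3.35 CPM and was 16.8-fold lower (log2 fold change -4.07, SE 0.57, adjusted p = 9.9e-08). *Apol7a*, of the apolipoprotein L family, was 14.5-fold lower (log2 fold change -3.86, SE 0.54, adjusted p = 9.9e-08). *Gzma*, the granzyme A of cytotoxic lymphocytes, went from 457 ± 215 to 55.8 ± 47.3 CPM and was 8.23-fold lower (log2 fold change -3.04, SE 0.43, adjusted p = 9.66e-08).

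Among genes that rose, *Abcb1a*, the P-glycoprotein efflux pump (chr5:8660077-8748575), measured 82.1, 109, 92.3, 131 and 114 CPM in the control villi and 366, 370.0, 476 and 408 CPM in the exposed villi, with narrow spread in both groups, and was 3.82-fold higher (log2 fold change 1.93, SE 0.30, adjusted p = 1.3e-06). *Epha2*, an ephrin receptor tyrosine kinase (chr4:141301240-141329384), measured 153, 219, 77.7, 197 and 138 CPM in the control villi and 834, 605, 831 and 482 CPM in the exposed villi, and was 4.39-fold higher (log2 fold change 2.13, SE 0.32, adjusted p = 3.95e-07).

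*Mcpt1*, a protease of mucosal mast cells (chr14:56017971-56020384), measured 9.26, 0, 35.3, 0 and 11.8 CPM in the control villi and 206, 494, 164 and 187 CPM in the exposed villi. Mouse 48 was the highest control, well below every exposed villus, and the gene was 20.7-fold higher (log2 fold change 4.37, SE 0.65, adjusted p = 4.35e-07). *Bcl2l15*, a BCL2 family member, went from 18.7 ± 20.5 to 412 ± 174 CPM and was 20.1-fold higher (log2 fold change 4.33, SE 0.65, adjusted p = 4.67e-07). *S100a14*, a small calcium-binding protein, was 8.52-fold higher (log2 fold change 3.09, SE 0.48, adjusted p = 1.03e-06), the lysophospholipid acyltransferase *Mboat1* was 25.5-fold higher (log2 fold change 4.67, SE 0.62, adjusted p = 1.16e-08), and cyclophilin A, *Ppia*, was 3.08-fold higher (log2 fold change 1.62, SE 0.22, adjusted p = 4.84e-08). The glycolytic aldolase *Aldoa* was 3.10-fold higher (log2 fold change 1.63, SE 0.25, adjusted p = 1.33e-06). *Gm2663*, a trypsinogen-like gene whose probe may share targets with near-identical trypsinogens, measured 0, 0, 1.89, 0 and 0 CPM in the control villi and 307, 271, 48.0 and 16.9 CPM in the exposed villi, and was 164-fold higher (log2 fold change 7.36, SE 0.84, adjusted p = 1.97e-11). Its order among the exposed villi followed that of the pancreatic trypsinogen *Try4*, at 2484, 1521, 119 and 5.82 CPM in the same libraries, while the controls held 1626, 491, 992, 5558 and 7.2 CPM of *Try4*; the part of pancreatic RNA in its change was not tested.

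**Figure D2:**
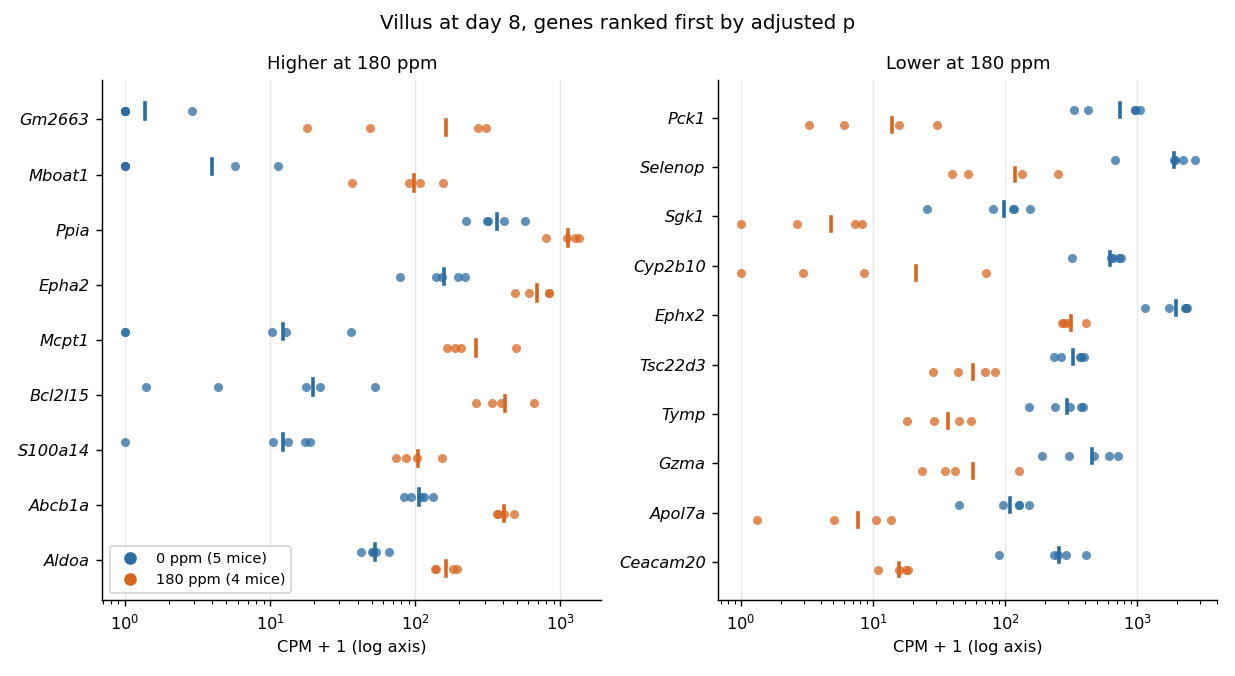
Level (CPM + 1, log axis) in each of the 5 control and 4 exposed villi of 9 genes higher and 10 genes lower that ranked first by adjusted p and whose groups do not overlap, with the group mean as a bar. *Pck1* went from 745 ± 337 to 12.8 ± 12.2 CPM and *Mcpt1* from 11.3 ± 14.5 to 263 ± 155 CPM, and in every gene shown the exposed points lie on 1 side of the control points.

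Each list below is read beside the shares of all genes on the same choice of probe, 2.82% called higher and 3.67% called lower. Genes of nutrient uptake fell. Of 13 tested genes of sugar digestion, sugar uptake and gluconeogenesis, 9 were lower, 0 higher and 4 did not pass, with a median log2 fold change of -1.72. *Mgam*, maltase-glucoamylase of the brush border, measured 8848, 9272, 3304, 6064 and 4990.3 CPM in the control villi and 2048, 1868, 2107 and 1885 CPM in the exposed villi. The exposed villi were close to each other and all below the lowest control, mouse 48, and the gene was 3.28-fold lower (log2 fold change -1.72, SE 0.28, adjusted p = 3.63e-06). The trehalase *Treh* was 4.15-fold lower (log2 fold change -2.05, SE 0.37, adjusted p = 3.98e-05) and the gluconeogenic fructose bisphosphatase *Fbp1* was 4.61-fold lower (log2 fold change -2.20, SE 0.50, adjusted p = 0.00155). Lactase, *Lct*, had 9.66, 8.72, 11.9, 32.8 and 40.3 CPM in the controls and at most 3 counts in each exposed villus, at least 21.5-fold lower when the exposed group is set to a floor of 3 counts per library, as for every such bound below. The glucose transporter gene *Slc5a1* (log2 fold change -1.12, adjusted p = 0.00745), the fructose transporter *Slc2a5* (log2 fold change -2.72, adjusted p = 0.0139), *Slc2a2* (log2 fold change -1.30, adjusted p = 0.0688) and *G6pc* (log2 fold change -2.66, adjusted p = 0.0314) were the other members that fell, named here after their values were seen. *Slc2a2* lost its call in 10 of 20 alternative settings and *G6pc* in 7. *Khk*, of fructose breakdown, did not pass (log2 fold change -0.59, adjusted p = 0.303).

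Peptide and amino acid uptake went the same way, with 7 of 17 tested genes lower, 0 higher and a median of -0.84. The proline transporter *Slc6a20a* measured 259, 243, 176, 241 and 251 CPM in the control villi and 31.1, 57.6, 43.5 and 48.4 CPM in the exposed villi, without overlap of the groups, and was 5.11-fold lower (log2 fold change -2.35, SE 0.37, adjusted p = 2.51e-06). The peptidase *Ace* was 6.78-fold lower (log2 fold change -2.76, SE 0.48, adjusted p = 1.52e-05). The neutral amino acid transporter *Slc6a19* was 3.21-fold lower (log2 fold change -1.68, SE 0.33, adjusted p = 0.000144) and the peptide transporter *Slc15a1* was 4.25-fold lower (log2 fold change -2.09, SE 0.44, adjusted p = 0.000674). The highest member by fold change, *Slc7a7*, did not pass (log2 fold change 0.50, adjusted p = 0.463).

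Genes of lipid absorption were lower in part. Of 26 tested genes, 10 were lower, 1 was higher and 15 did not pass, with a median of -0.45. The apolipoproteins of the chylomicron were among those that fell: *Apoa4* measured 12147, 14048, 3489, 20777 and 22444 CPM in the control villi and 2034, 1456, 2165 and 2858 CPM in the exposed villi, and was 6.85-fold lower (log2 fold change -2.78, SE 0.49, adjusted p = 2.78e-05), *Apoc3* was 6.93-fold lower (log2 fold change -2.79, SE 0.49, adjusted p = 2.49e-05) and *Apoc2* was 5.27-fold lower (log2 fold change -2.40, SE 0.39, adjusted p = 5.02e-06). The fatty acid receptor *Cd36* measured 40.7, 47.6, 33.2, 68.5 and 99.8 CPM in the control villi and 4.26, 0, 2.60 and 7.05 CPM in the exposed villi, with no overlap, and was 14.8-fold lower (log2 fold change -3.89, SE 0.57, adjusted p = 3.61e-07). The sterol transporter *Npc1l1* was 3.35-fold lower (log2 fold change -1.74, SE 0.30, adjusted p = 1.48e-05). Among members that did not pass were the fatty acid binding proteins *Fabp1* (log2 fold change 0.67, adjusted p = 0.444) and *Fabp2* (log2 fold change -0.35, adjusted p = 0.595) and the lipid transfer protein *Mttp* (log2 fold change -0.13, adjusted p = 0.879). The member that rose was *Plin2*, the coat protein of lipid droplets, which measured 146, 136.8, 205, 184 and 392 CPM in the control villi and 527, 385, 467 and 563 CPM in the exposed villi. The control of mouse 50, the highest, overlapped the lowest exposed villus, and the gene was 2.27-fold higher (log2 fold change 1.18, SE 0.25, adjusted p = 0.000802).

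Fatty acid oxidation and peroxisome genes had 7 of 30 tested members lower and 0 higher, but a median of -0.03, near that of all genes. *Pdk4*, the kinase that holds back pyruvate dehydrogenase, measured 64.0, 85.8, 31.6, 91.05 and 65.0 CPM in the control villi and 0, 2.22, 2.98 and 10.7 CPM in the exposed villi, and was 14.8-fold lower (log2 fold change -3.88, SE 0.70, adjusted p = 3.51e-05). The thiolase *Acaa1a* was 2.64-fold lower (log2 fold change -1.40, SE 0.23, adjusted p = 7.11e-06) and *Hadh* was 2.22-fold lower (log2 fold change -1.15, SE 0.29, adjusted p = 0.00728). The pantetheinase *Vnn1* was at 0 in every exposed villus and 8.05, 9.72, 2.70, 0 and 2.16 CPM in the controls, at least 4.71-fold lower, and lost its call in 8 of 19 alternative settings. Without mouse 528, 4 members passed, all lower, and without mouse 48, 2 were higher and 8 lower.

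Genes that mark height on the villus changed in part. Of 12 villus tip genes, 4 were lower and 8 did not pass, and of 8 villus base genes 0 passed. The members that fell were *Apoa4*, given above, and 3 genes of purine handling: the ectonucleotidase *Enpp3*, adenosine deaminase *Ada* and the purine nucleoside transporter *Slc28a2*. *Enpp3* measured 2988, 3126, 241, 3564 and 3556 CPM in the control villi and 370.2, 217, 267 and 276 CPM in the exposed villi. The control of mouse 48 lay inside the exposed range and the other 4 controls far above it, and the gene was 9.52-fold lower (log2 fold change -3.25, SE 0.48, adjusted p = 3.81e-07). *Ada* measured 109, 99.9, 3.78, 183 and 149.5 CPM in the control villi and 1.97, 3.05, 4.46 and 0 CPM in the exposed villi, with mouse 48 again at the level of the exposed villi, and was 38.1-fold lower (log2 fold change -5.25, SE 0.79, adjusted p = 3.95e-07). *Slc28a2* was at 0 in the 4 exposed villi and 18.5, 6.70, 1.08, 20.8 and 31.0 CPM in the controls, at least 16.2-fold lower. *Nt5e*, the ecto-5′-nucleotidase of the tip, did not pass (log2 fold change -0.47, adjusted p = 0.876), nor did *Klf4* (log2 fold change -0.20, adjusted p = 0.835).

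Cholesterol synthesis moved against these lists. Of 23 tested genes of the pathway and its regulators, 10 were higher, 0 lower and 13 did not pass, with a median log2 fold change of 1.11. These genes are known targets of the sterol-regulated factor SREBP-2, which is released when membrane sterol falls. The kinases of the mevalonate path *Pmvk* and *Mvk* measured 16.51, 10.7, 23.2, 16.6 and 21.1 CPM in the control villi and 81.9, 115, 36.5 and 61.9 CPM in the exposed villi for the first, and 8.45, 13.7, 18.3, 21.7 and 8.40 CPM in the control villi and 51.8, 85.0, 56.2 and 70.5 CPM in the exposed villi for the second. Both were without overlap, and were 4.07-fold higher (log2 fold change 2.02, SE 0.33, adjusted p = 3.88e-06) and 4.60-fold higher (log2 fold change 2.20, SE 0.40, adjusted p = 4.62e-05). Farnesyl diphosphate synthase, *Fdps*, was 4.38-fold higher (log2 fold change 2.13, SE 0.41, adjusted p = 0.000107), and the isomerase *Idi1* was 3.43-fold higher (log2 fold change 1.78, SE 0.34, adjusted p = 0.00014). The lowest member was *Mvd*, which did not pass (log2 fold change -1.69, adjusted p = 0.418).

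**Figure D3:**
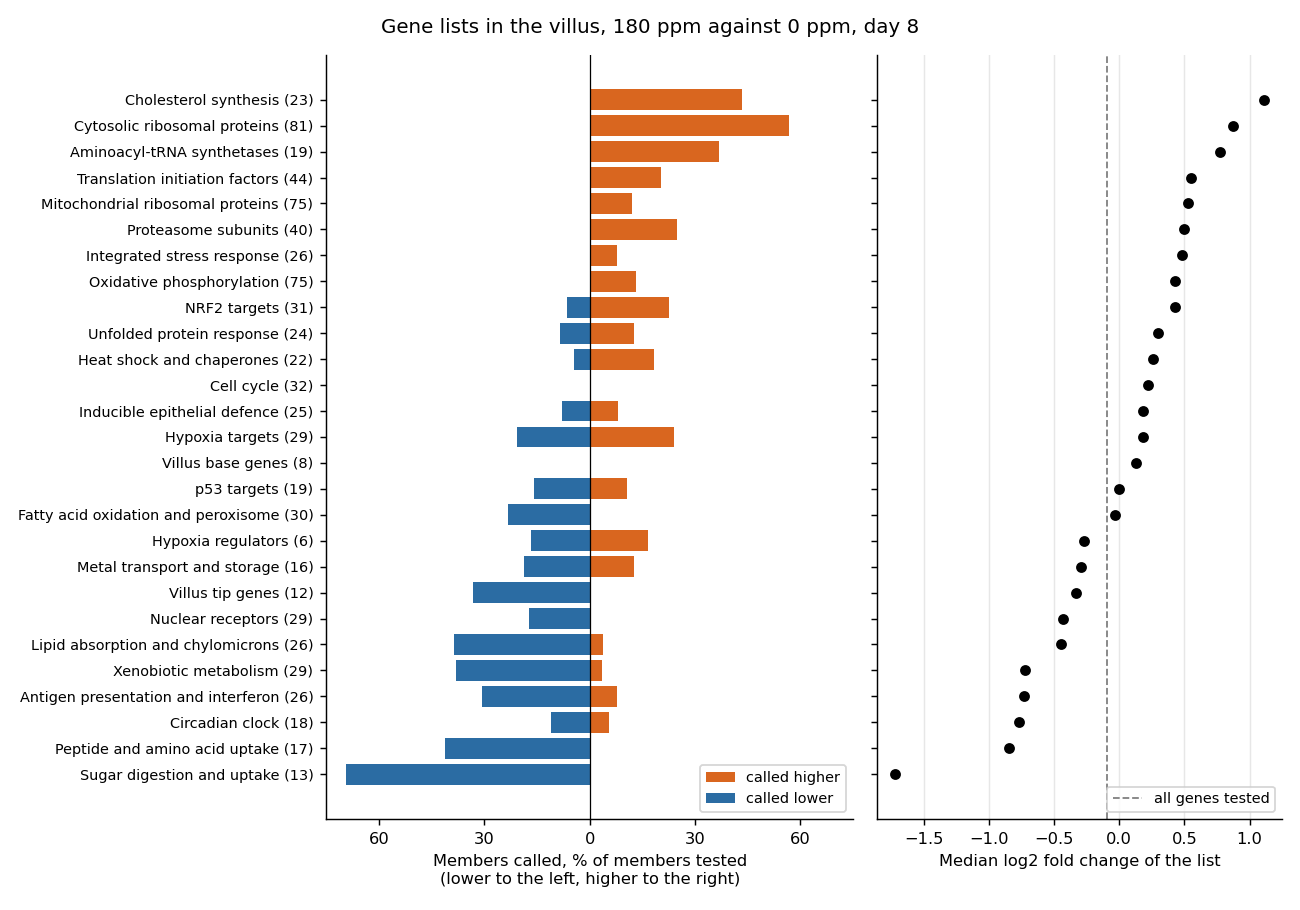
Left, percent of the tested members of each of 27 gene lists (tested number in parentheses) that were called higher, to the right, or lower, to the left (edgeR, adjusted p below 0.1). Right, the median log2 fold change of each list, with the median over all 18998 genes tested (-0.09) as a dashed line. Sugar digestion lies lowest, at -1.72, and cholesterol synthesis highest, at 1.11.

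Genes of drug and xenobiotic metabolism were lower in part. Of 29 tested genes, 11 were lower, 1 was higher and 17 did not pass, with a median of -0.72. *Cyp2b10* measured 728, 632, 321, 757 and 656 CPM in the control villi and 7.54, 1.94, 70.7 and 0 CPM in the exposed villi. Mouse 529 was the highest exposed villus and mouse 48 the lowest control, and they did not meet. *Cyp3a11* measured 403, 714, 124, 520.3 and 365 CPM in the control villi and 11.1, 9.97, 75.9 and 21.8 CPM in the exposed villi, and was 14.5-fold lower (log2 fold change -3.86, SE 0.66, adjusted p = 1.04e-05). *Cyp3a25* was 6.34-fold lower (log2 fold change -2.67, SE 0.51, adjusted p = 0.000104) and *Cyp4v3* was 7.00-fold lower (log2 fold change -2.81, SE 0.42, adjusted p = 4.05e-07). The Cyp3a and Cyp2c genes are near-identical copies, so that a probe may read more than its own gene. The member that rose was *Abcb1a*, and the second efflux pump of the list, *Abcg2*, did not pass (log2 fold change -0.72, adjusted p = 0.472).

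Receptors that control these enzymes were lower in part. Of 29 tested nuclear receptors, 5 were lower and 0 higher, with a median of -0.43. The pregnane X receptor *Nr1i2* measured 202, 209, 131, 178 and 224 CPM in the control villi and 84.5, 75.9, 77.7 and 111 CPM in the exposed villi, and was 2.15-fold lower (log2 fold change -1.11, SE 0.28, adjusted p = 0.00578). The vitamin D receptor *Vdr* was 2.08-fold lower (log2 fold change -1.06, SE 0.30, adjusted p = 0.0239). The thyroid hormone receptor *Thra* was 1.71-fold lower (log2 fold change -0.78, SE 0.25, adjusted p = 0.0565), and *Nr1d2* was 2.79-fold lower (log2 fold change -1.48, SE 0.48, adjusted p = 0.0567). The constitutive androstane receptor *Nr1i3* (log2 fold change -0.85, adjusted p = 0.209) and *Hnf4a* (log2 fold change -0.00, adjusted p = 1), a main regulator of enterocyte genes, did not pass. *Thra* lost its call in 11 of 20 alternative settings and *Nr1d2* in 8, and leaving out any of mice 46, 49, 526, 528 and 530 left 2 or 3 members of the list.

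Antioxidant genes rose in part. NRF2, a factor released by oxidants and electrophiles, is known to drive the list, of which 31 members were tested, 7 were higher and 2 lower, with a median of 0.42. Glutathione reductase, *Gsr*, measured 591, 769, 764, 362 and 480.2 CPM in the control villi and 1042, 2322, 1569.8 and 1793 CPM in the exposed villi, with no overlap, and was 2.83-fold higher (log2 fold change 1.50, SE 0.27, adjusted p = 3.51e-05). The glutathione S-transferase *Gsta1* measured 616, 721, 799.6, 514 and 728 CPM in the control villi and 2927, 3208, 2945 and 2325 CPM in the exposed villi, and was 4.21-fold higher (log2 fold change 2.07, SE 0.40, adjusted p = 0.000162). Its near-identical neighbour *Gsta2* was 4.09-fold higher (log2 fold change 2.03, SE 0.42, adjusted p = 0.000392), and their probes may share reads. *Gsta4* was 4.24-fold higher (log2 fold change 2.09, SE 0.42, adjusted p = 0.000276). Of the glutathione synthesis genes, *Gclm* was lower (log2 fold change -0.92, adjusted p = 0.0732, a call lost in 9 of 20 alternative settings) and *Gclc* did not pass (log2 fold change 0.55, adjusted p = 0.411). Other targets often used as NRF2 reporters did not pass: *Nqo1* (log2 fold change 0.57, adjusted p = 0.379), *Hmox1* (log2 fold change -1.65, adjusted p = 0.451), *Srxn1* (log2 fold change -0.03, adjusted p = 1) and *Txnrd1* (log2 fold change 0.19, adjusted p = 0.73). Of these, *Nqo1* passed without the control of mouse 47, at 1.01 (adjusted p = 0.0811). The microsomal epoxide hydrolase *Ephx1* fell and was 4.93-fold lower (log2 fold change -2.30, SE 0.47, adjusted p = 0.000324).

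Metal handling genes changed in both directions, with 2 of 16 higher, 3 lower and a median of -0.29. The metal sensor MTF-1 is known to bind metal response elements in the promoters of the metallothioneins, which chelate zinc and copper, and of the zinc exporter *Slc30a1*. *Mt2* measured 2.01, 0, 6.47, 2.13 and 3.84 CPM in the control villi and 119, 82.5, 62.1 and 88.5 CPM in the exposed villi. Every exposed villus was above every control, and the gene was 24.1-fold higher (log2 fold change 4.59, SE 0.83, adjusted p = 4.41e-05). *Slc30a1* measured 41.9, 32.9, 32.9, 48.1 and 51.4 CPM in the control villi and 119, 87.2, 101 and 61.3 CPM in the exposed villi, without overlap, and was 2.21-fold higher (log2 fold change 1.14, SE 0.31, adjusted p = 0.0166). *Mt1* gave a log2 fold change of 2.25 and did not pass (adjusted p = 0.154), and leaving out a library moved it from 1.18 without mouse 528 (adjusted p = 0.636) to a call without mouse 530 (2.71, adjusted p = 0.0764).

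The promoters of the 2 members that rose are shown because both hold metal response element cores (RefSeq promoter table, GRCm38.p6, 300 bases of which most lie before the start of the gene, 5′ to 3′ on the strand of the gene). Capitals mark the letters TGCACNC and TGCGCNC on either strand, N being any base. The *Mt2* window is chr8:94172368-94172667 on the plus strand and holds 4 matches, and the *Slc30a1* window is chr1:191906531-191906830 on the plus strand and holds 2.
Mt2: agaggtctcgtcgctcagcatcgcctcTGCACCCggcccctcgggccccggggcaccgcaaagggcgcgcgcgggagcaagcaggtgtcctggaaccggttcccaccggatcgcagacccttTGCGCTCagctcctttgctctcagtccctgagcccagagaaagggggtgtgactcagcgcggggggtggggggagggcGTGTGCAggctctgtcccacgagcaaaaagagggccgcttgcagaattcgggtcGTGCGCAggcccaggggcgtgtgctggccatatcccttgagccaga
Slc30a1: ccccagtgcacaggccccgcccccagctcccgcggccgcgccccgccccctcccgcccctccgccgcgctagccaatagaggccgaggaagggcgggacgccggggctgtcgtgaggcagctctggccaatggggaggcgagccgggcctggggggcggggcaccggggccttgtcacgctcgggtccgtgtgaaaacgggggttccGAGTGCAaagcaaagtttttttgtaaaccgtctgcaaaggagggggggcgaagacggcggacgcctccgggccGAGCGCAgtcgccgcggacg
The form TGCACNC was in 4 of 12 promoter windows of the list and in 12.6% of all 32851 windows, and TGCGCNC in 7 of 12 and 15.4%. The windows of *Mt1*, which did not pass, hold both forms too. A match describes the letters and not a bound site.

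Of the members that fell, the copper importer *Slc31a1* was 2.62-fold lower (log2 fold change -1.39, SE 0.30, adjusted p = 0.000695). The ferric reductase of iron uptake, *Cybrd1*, was at 0 in the 4 exposed villi and 28.6, 33.9, 0, 0 and 10.3 CPM in the controls, at least 15.1-fold lower, and 2 of the controls were at 0 as well. The ferroxidase *Heph*, of iron export, was 1.98-fold lower (log2 fold change -0.98, SE 0.30, adjusted p = 0.0413). The iron importer *Slc11a2* (log2 fold change 0.23, adjusted p = 0.851) and the exporter *Slc40a1* (log2 fold change -0.89, adjusted p = 0.413) did not pass.

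Hypoxia-responsive genes changed in both directions. Of 29 tested targets, 7 were higher and 6 lower, with a median of 0.18. Hexokinase 2, *Hk2*, measured 32.2, 18.4, 22.7, 8.93 and 18.5 CPM in the control villi and 83.9, 70.3, 82.6 and 33.4 CPM in the exposed villi, with no overlap, and was 3.28-fold higher (log2 fold change 1.71, SE 0.34, adjusted p = 0.000186). *Aldoa*, given above, measured 49.9, 41.6, 65.3, 49.4 and 52.3 CPM in the control villi and 181, 136, 138 and 192 CPM in the exposed villi. Lactate dehydrogenase A, *Ldha*, also of glycolysis, had a log2 fold change of 1.07 (adjusted p = 0.00726). The carbonic anhydrase *Car9* rose too (log2 fold change 1.04, adjusted p = 0.0805), with its call lost in 11 of 20 alternative settings, while the glycolytic *Pgk1* (log2 fold change 0.27, adjusted p = 0.875) and *Tpi1* (log2 fold change 0.26, adjusted p = 0.623) did not pass. In the other direction, *Pfkfb4*, which sets the level of an activator of glycolysis, was 2.72-fold lower (log2 fold change -1.45, SE 0.28, adjusted p = 0.000174), vascular endothelial growth factor, *Vegfa*, measured 56.4, 43.9, 20.2, 54.5 and 56.9 CPM in the control villi and 13.1, 2.49, 19.7 and 16.9 CPM in the exposed villi and was 3.51-fold lower (log2 fold change -1.81, SE 0.40, adjusted p = 0.00114), and the lipase inhibitor *Angptl4* was 3.90-fold lower (log2 fold change -1.96, SE 0.48, adjusted p = 0.00421). Of the regulators, *Hif1a* measured 72.1, 130.4, 106, 78.3 and 133 CPM in the control villi and 178, 213, 273 and 199 CPM in the exposed villi, without overlap, and was 2.06-fold higher (log2 fold change 1.04, SE 0.28, adjusted p = 0.0158). *Epas1*, which encodes HIF-2 alpha, was 2.56-fold lower (log2 fold change -1.36, SE 0.46, adjusted p = 0.0723) and lost its call in 11 of 20 alternative settings. Without mouse 526, 6 targets passed, 3 in each direction.

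The hypoxia response element core ACGTG stood in 21 of 37 promoter windows of the target list and in 19.6% of all windows. It was found in windows of members that rose and of members that fell, *Vegfa* and *Pfkfb3* among the latter. The windows of *Hk2* (chr6:82774405-82774704, minus strand) and *Ldha* (chr7:46845554-46845853, plus strand) are shown as examples of glycolytic members that rose, with ACGTG on either strand in capitals. A second *Ldha* window of the table (chr7:46846832-46847131) holds 0 matches.
Hk2: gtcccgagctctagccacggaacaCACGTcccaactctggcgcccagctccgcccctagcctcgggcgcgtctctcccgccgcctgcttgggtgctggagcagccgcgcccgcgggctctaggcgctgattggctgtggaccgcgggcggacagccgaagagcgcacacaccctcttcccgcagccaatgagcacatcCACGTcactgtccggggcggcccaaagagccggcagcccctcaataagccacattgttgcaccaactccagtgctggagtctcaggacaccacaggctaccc
Ldha: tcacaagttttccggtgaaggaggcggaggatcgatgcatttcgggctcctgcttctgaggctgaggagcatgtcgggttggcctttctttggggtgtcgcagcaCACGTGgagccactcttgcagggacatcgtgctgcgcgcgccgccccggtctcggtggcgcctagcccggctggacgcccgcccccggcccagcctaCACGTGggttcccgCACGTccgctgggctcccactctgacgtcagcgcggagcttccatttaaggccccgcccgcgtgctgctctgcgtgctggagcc
The antioxidant response element core TGACNNNGC was in 10 of 35 windows of the NRF2 list and 12.4% of all windows, and the C/EBP-ATF response element core TGATGNAA in 8 of 29 windows of the integrated stress response list and 3.97% of all. The sterol response element core TCACNCCAC, added after the values had been seen, was in 1 of 18 windows of the cholesterol list, that of *Hmgcs1*, and in 1.24% of all.

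Genes of protein quality control changed in both directions. In the unfolded protein response of the endoplasmic reticulum, 3 of 24 tested genes were higher and 2 lower, with a median of 0.30. *Herpud1*, of the degradation of misfolded proteins, measured 143, 117, 143, 128 and 179 CPM in the control villi and 24.9, 27.4, 53.6 and 22.7 CPM in the exposed villi. The groups were far apart, and the gene was 4.42-fold lower (log2 fold change -2.15, SE 0.33, adjusted p = 1.57e-06). Its partner *Syvn1* was 1.57-fold lower (log2 fold change -0.65, SE 0.22, adjusted p = 0.0728). The folding factors *Canx* and *Pdia3* were 1.94-fold higher (log2 fold change 0.95, SE 0.21, adjusted p = 0.001) and 1.53-fold higher (log2 fold change 0.62, SE 0.19, adjusted p = 0.04), and *Dnajb11* was 1.64-fold higher (log2 fold change 0.71, SE 0.23, adjusted p = 0.0508). *Syvn1* lost its call in 10 of 20 alternative settings and *Dnajb11* in 8. The main sensors and reporters did not pass, *Hspa5* at 0.26 and *Xbp1* at -0.03 on the log2 scale. Without mouse 48, 6 members were higher and 2 lower, and without mouse 46, 49 or 529 a total of 3 passed.

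In the integrated stress response, 2 of 26 tested genes were higher and 0 lower, 7.69% of them. On the same choice of probe, 2.82% of all genes were higher and 3.67% lower. With so few called members, no shift of the list is read from this count. *Eif4ebp1*, which holds back cap-dependent translation, measured 11.7, 7.38, 18.1, 1.28 and 23.5 CPM in the control villi and 55.4, 55.1, 27.9 and 27.9 CPM in the exposed villi, and was 3.07-fold higher (log2 fold change 1.62, SE 0.43, adjusted p = 0.0125). *Atf4*, the factor at the centre of the response, was 1.55-fold higher (log2 fold change 0.63, SE 0.22, adjusted p = 0.0972), and it lost its call in 13 of 20 alternative settings. *Ddit3* (log2 fold change -0.79, adjusted p = 0.6) and *Trib3* (log2 fold change -0.75, adjusted p = 0.544) did not pass. Of 22 heat shock and chaperone genes, 4 were higher and 1 lower. The members that rose were the chaperonin subunits *Tcp1*, *Cct6a* and *Cct2* and the exchange factor *Hspa4*: *Tcp1* measured 25.0, 60.3, 68.5, 40.4 and 52.1 CPM in the control villi and 90.4, 151, 128 and 143 CPM in the exposed villi, and was 2.56-fold higher (log2 fold change 1.35, SE 0.32, adjusted p = 0.00266), and *Cct6a* was 1.85-fold higher (log2 fold change 0.88, SE 0.22, adjusted p = 0.00558). The inducible *Hspa1b* was 7.73-fold lower (log2 fold change -2.95, SE 0.83, adjusted p = 0.0205), with its groups overlapping at the low values of 0, 4.69, 32.4, 13.2 and 32.9 CPM in the controls and 7.54, 0, 0 and 0 CPM in the exposed villi. Without mouse 48, 7 were higher, and without mouse 528, 3.

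Genes for making and clearing protein were higher across many members. Of 81 cytosolic ribosomal protein genes tested, 46 were higher and 0 lower, with a median of 0.87. *Rpl4* measured 1036, 1078, 2458, 853 and 1163 CPM in the control villi and 2026, 3437, 3362 and 3364 CPM in the exposed villi. The control of mouse 48 was far above the other controls and inside the exposed range. The gene was 2.31-fold higher (log2 fold change 1.21, SE 0.24, adjusted p = 0.000299). *Rpl34* was 2.28-fold higher (log2 fold change 1.19, SE 0.21, adjusted p = 2.23e-05), *Rpl19* was 2.22-fold higher (log2 fold change 1.15, SE 0.22, adjusted p = 0.000159), *Rpl27a* was 2.33-fold higher (log2 fold change 1.22, SE 0.26, adjusted p = 0.000708) and *Rps12* was 2.63-fold higher (log2 fold change 1.40, SE 0.30, adjusted p = 0.00084). Ribosomal protein genes have many processed copies, so the count of a probe may hold reads of more than its gene. The library of mouse 48 mattered here: without it 60 members passed, all higher, and the median was 1.18. Without mouse 46 or mouse 49, 30 and 27 members passed, and a fit of the 9 libraries alone called 24, all of them higher.

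The same direction held for the other lists of this kind. Aminoacyl-tRNA synthetases had 7 of 19 tested members higher and 0 lower, with a median of 0.77. *Nars* was 2.31-fold higher (log2 fold change 1.21, SE 0.31, adjusted p = 0.00708) and *Aars* was 1.89-fold higher (log2 fold change 0.92, SE 0.22, adjusted p = 0.00288), which load asparagine and alanine on their tRNAs. Translation initiation factors had 9 of 44 higher and 0 lower. *Eif5a* measured 583, 655, 1122, 581 and 467 CPM in the control villi and 1008, 1453, 1459 and 1564 CPM in the exposed villi, with the control of mouse 48 overlapping the exposed villi, and was 2.01-fold higher (log2 fold change 1.01, SE 0.22, adjusted p = 0.000949), and *Eif1ax* was 2.12-fold higher (log2 fold change 1.08, SE 0.27, adjusted p = 0.00586). Proteasome subunits had 10 of 40 higher and 0 lower, led by *Psmc1*, which was 1.87-fold higher (log2 fold change 0.90, SE 0.21, adjusted p = 0.00189), and *Psmb6*, which was 1.86-fold higher (log2 fold change 0.90, SE 0.22, adjusted p = 0.00464). Leaving out mouse 48 gave 14 initiation factors, and leaving out mouse 49 or mouse 528 gave 4 or 5 proteasome subunits, all higher.

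Mitochondrial genes were higher in smaller part, beside 2.82% of all genes called higher. Of 75 tested genes of oxidative phosphorylation, 10 were higher and 0 lower, with a median of 0.43. *Atp5k*, a subunit of the ATP synthase, measured 63.2, 115, 93.3, 110.2 and 171 CPM in the control villi and 210.3, 333, 337 and 331 CPM in the exposed villi, with no overlap, and was 2.71-fold higher (log2 fold change 1.44, SE 0.25, adjusted p = 2.23e-05). *Ndufb6*, of complex I, was 2.12-fold higher (log2 fold change 1.08, SE 0.20, adjusted p = 5.76e-05). Of 75 mitochondrial ribosomal protein genes, 9 were higher and 0 lower, with *Mrpl57* 2.34-fold higher (log2 fold change 1.23, SE 0.31, adjusted p = 0.00668) and *Mrps36* 1.97-fold higher (log2 fold change 0.98, SE 0.26, adjusted p = 0.00947). Without mouse 48, 18 of these passed, 17 higher and 1 lower, and without mouse 46, 47 or 529 they were 5, 4 and 5. Without mouse 46 or 49, 5 or 6 genes of oxidative phosphorylation passed.

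Genes of cell division did not pass. Of 32 cell cycle genes tested, 0 were called, with a median of 0.22, and the summed level of 6 markers of cycling cells was 52.8 to 427 CPM in the control and 182 to 241 CPM in the exposed villi. With every library, this sum did not pass (two-sided exact permutation test, p = 0.238, adjusted p = 0.544). The highest control was mouse 48, and the other 4, at 52.8 to 165 CPM, lay below every exposed villus. *Mki67* gave a log2 fold change of -0.34 (adjusted p = 0.713), *Ccnd1* 1.56 (adjusted p = 0.289) and *Mcm5*, the lowest, -2.52 (adjusted p = 0.252). Without mouse 48, 1 member was higher, and with marker sums of crypt and acinar cells as covariates, 5 were.

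Targets of p53, the factor activated by DNA damage, were mixed, with 2 of 19 higher, 3 lower and a median of 0. *Pmaip1*, which promotes cell death, measured 398, 386, 58.8, 274 and 338 CPM in the control villi and 83.2, 100.2, 71.0 and 100.2 CPM in the exposed villi. Mouse 48 was below all exposed villi and the other 4 controls far above them, and the gene was 3.25-fold lower (log2 fold change -1.70, SE 0.39, adjusted p = 0.00211). *Sesn1* was 3.06-fold lower (log2 fold change -1.61, SE 0.39, adjusted p = 0.00471) and *Btg2*, which slows division, was 2.94-fold lower (log2 fold change -1.56, SE 0.35, adjusted p = 0.00166). *Tnfrsf10b* rose at low counts, from 1.13 ± 1.87 to 9.86 ± 7.33 CPM, and was 5.48-fold higher (log2 fold change 2.45, SE 0.78, adjusted p = 0.051), and *Plk2* was 3.65-fold higher (log2 fold change 1.87, SE 0.57, adjusted p = 0.0388). *Tnfrsf10b* lost its call in 10 of 20 alternative settings. The targets most often read for p53 activity, *Cdkn1a* (log2 fold change 0.01, adjusted p = 1) and *Mdm2* (log2 fold change 0.28, adjusted p = 0.748), did not pass. Of 18 clock genes, 1 was higher and 2 lower, with *Nr1d2*, given above, among the latter, and *Per3* was 5.95-fold higher (log2 fold change 2.57, SE 0.79, adjusted p = 0.0382) at a mean under 10 CPM. Without mouse 49, 3 p53 targets passed, all lower, and 1 clock gene.

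Antigen presentation fell in the exposed villi. Of 26 tested genes of antigen presentation and the interferon response, 8 were lower and 2 higher, with a median of -0.73. The class I heavy chain *H2-K1* measured 1046, 1189, 504, 1386 and 997 CPM in the control villi and 334, 375, 357 and 439.7 CPM in the exposed villi. The exposed villi were all below the lowest control, mouse 48, and the gene was 2.72-fold lower (log2 fold change -1.44, SE 0.21, adjusted p = 3.81e-07). Its light chain *B2m* measured 158, 235, 115, 246 and 275 CPM in the control villi and 70.4, 49.8, 76.3 and 56.4 CPM in the exposed villi, without overlap, and was 3.25-fold lower (log2 fold change -1.70, SE 0.32, adjusted p = 7.22e-05). The class II genes *H2-DMb1* and *Cd74* were 5.87-fold lower (log2 fold change -2.55, SE 0.62, adjusted p = 0.00408) and 2.76-fold lower (log2 fold change -1.47, SE 0.40, adjusted p = 0.0167). The interferon-induced *Oas1a* rose, as 2.51-fold higher (log2 fold change 1.33, SE 0.36, adjusted p = 0.0164), with the exposed villi spread over 129, 207, 232 and 501 CPM. *H2-K1* and *Oas1a* belong to families of near-identical genes, and their probes may read more than a single member. Leaving out mouse 526, 528 or 530 left 6, 5 and 6 called members.

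Markers of T cells and intraepithelial lymphocytes, which sit between villus enterocytes, were lower in all exposed villi. Of 8 markers tested, 7 were lower and 0 higher, and their sum was 307 to 1023 CPM in the controls and 66.5 to 203 CPM in the exposed villi (two-sided exact permutation test, p = 0.0159, which is the smallest that 4 against 5 allows, and 0.254 after adjustment over 16 lists). The T cell receptor chains *Cd3e* and *Cd3g* measured 50.3, 24.5, 13.2, 50.2 and 39.6 CPM in the control villi and 6.22, 0, 7.44 and 2.76 CPM in the exposed villi for the first, and were 8.04-fold lower (log2 fold change -3.01, SE 0.59, adjusted p = 0.000183) and 6.11-fold lower (log2 fold change -2.61, SE 0.61, adjusted p = 0.00254). The chemokine *Ccl5* of these cells was 8.59-fold lower (log2 fold change -3.10, SE 0.51, adjusted p = 4.3e-06). The markers of B and plasma cells (447.5 to 1306 CPM in the exposed villi) and of macrophages (171 to 378 CPM) had 0 called members.

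Inducible epithelial defence had 2 of 25 tested genes higher and 2 lower. The alarmin *Il33* measured 14.5, 12.1, 14.03, 12.8 and 6.96 CPM in the control villi and 45.5, 68.7, 76.6 and 30.03 CPM in the exposed villi, with no overlap, and was 4.49-fold higher (log2 fold change 2.17, SE 0.51, adjusted p = 0.00256). *Sprr1a*, of the cornified envelope, was at 0 in every control and 21.3, 4.98, 0 and 0 CPM in the exposed villi, at least 6.55-fold higher on the group means, with 2 exposed villi at 0. The call was lost without mouse 526 (adjusted p = 0.346), the highest of them. The antimicrobial proteins *Ang4* and *Reg3a* were 4.94-fold lower (log2 fold change -2.30, SE 0.60, adjusted p = 0.00963) and 5.76-fold lower (log2 fold change -2.53, SE 0.81, adjusted p = 0.0545). *Ang4* lost its call with the marker covariates (-0.92, adjusted p = 0.234) and *Reg3a* in 7 of 20 alternative settings. Markers of Paneth cells, a list that holds *Ang4* and is part of the covariates, had 4 of 7 members lower, with a sum of 2781 to 23497 CPM in the control and 1506 to 4818 CPM in the exposed villi. *Duox2*, which makes hydrogen peroxide at the brush border, measured 17.7, 0, 5.13, 0 and 0 CPM in the control villi and 7.21, 18.0, 21.9 and 28.5 CPM in the exposed villi, and did not pass (log2 fold change 2.06, adjusted p = 0.247). It passed without mouse 46, its highest control, at 3.30 (adjusted p = 0.0982), and with the marker covariates, at 4.13 (adjusted p = 0.00024). Without mouse 50 the list had 7 called members and without mouse 526 it had 2.

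For 7 genes chosen from those ranked first at 180 ppm, 4 that fell and 3 that rose, the values at the other concentrations were set out. The contrasts at 0.1, 1.4, 5, 20 and 60 ppm have 4 or 5 exposed villi each and share the 5 control libraries with the 180 ppm contrast. This sharing and the choice of genes favour a pass at the other concentrations, so the values stand side by side and no overlap is drawn. *Pck1* had log2 fold changes of 0.37, 0.12 and -1.16 at 0.1, 1.4 and 5 ppm, which did not pass, and of -4.05 at 20 ppm (adjusted p = 9.11e-07) and -5.47 at 60 ppm (adjusted p = 3.51e-12). *Selenop* passed from 20 ppm (-2.03, adjusted p = 0.0041), as did *Sgk1* (-3.04, adjusted p = 0.000103). *Tsc22d3* passed at 1.4 ppm, at -1.26 (adjusted p = 0.0253), and was -1.72, -2.43 and -2.78 at 5, 20 and 60 ppm. Its value at 0.1 ppm was -0.62 (adjusted p = 0.746).

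Of the genes that rose, *Abcb1a* passed at 1.4 ppm (0.96, adjusted p = 0.0915), missed at 5 ppm (1.04, adjusted p = 0.12) and was 1.93 at 20 ppm and 2.07 at 60 ppm beside 1.93 at 180 ppm. *Epha2* was 0.41 at 5 ppm, which did not pass, and 1.91 at 20 ppm (adjusted p = 5.46e-05). *Mcpt1* passed at 60 ppm (3.15, adjusted p = 0.000312), and lay between -0.80 and 0.29 at the lower concentrations. *Mt2* passed at 60 ppm too (4.39, adjusted p = 9.65e-05).

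**Figure D4:**
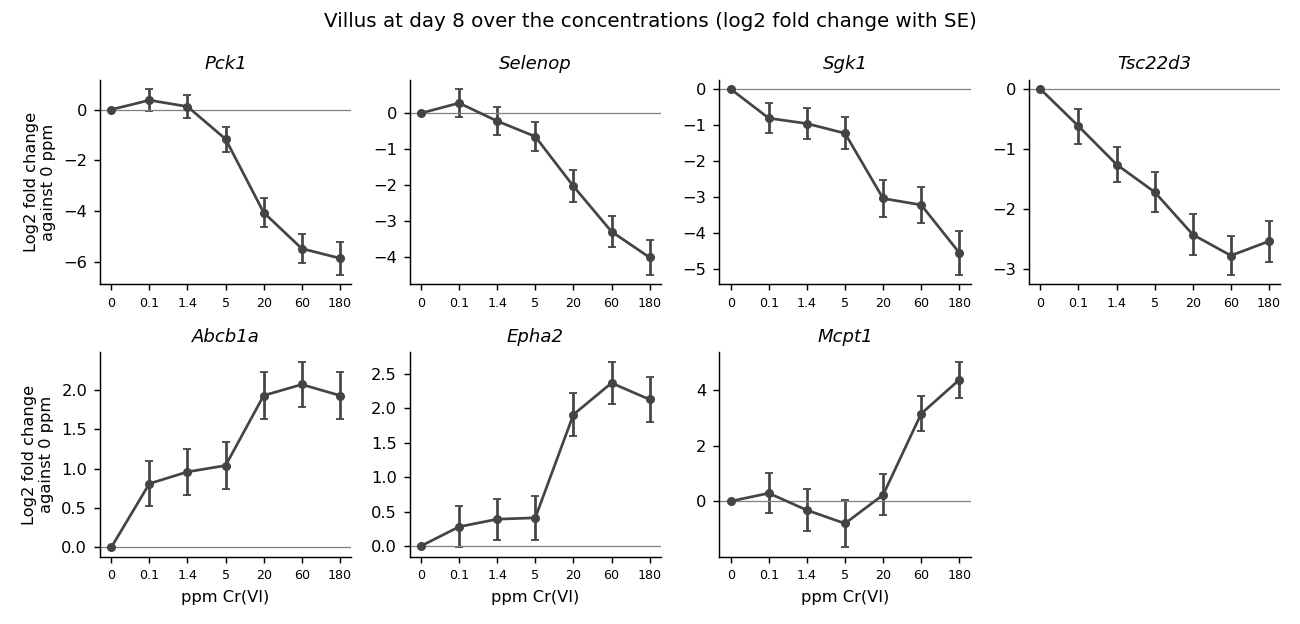
Log2 fold change against the shared 0 ppm villi of day 8 with its standard error, for each concentration of Cr(VI) at even spacing, in 4 genes that fell and 3 that rose at 180 ppm. The 0 ppm group is the reference at 0. *Pck1* reaches -4.05 at 20 ppm and -5.85 at 180 ppm, and *Mcpt1* stays near 0 up to 20 ppm and reaches 3.15 at 60 ppm.

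The same mice gave crypt libraries, and so did the exposed mouse 527, which has no villus library, for 5 untreated and 5 exposed crypts. The difference between the villus and the crypt response to 180 ppm was tested as an interaction. A single gene passed, 0.00526% of those tested, while 2227 probes had an unadjusted p below 0.05. With the mouse as a block, so that crypt and villus of a mouse are paired, 170 genes passed, 0.894%, with 85 more positive in the villus and 85 more negative. DESeq2 called 96 and the legacy form of the edgeR fit 3. The gene was *Plin2*, the lipid droplet coat: the villus went from 213 ± 104 to 486 ± 77.5 CPM, and the crypt went from 223 ± 57.2 to 136 ± 32.8 CPM. The responses differed by 1.89 on the log2 scale (SE 0.35, adjusted p = 0.0102, and 3.07e-06 with the block). Without mice 48 and 49 in both compartments, a choice made after seeing the data, 0 genes passed without the block.

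In the paired fit, *Epha2* was among the 6 genes with the smallest adjusted p that responded more positively in the villus, with a villus level that went from 157 ± 55.1 to 688 ± 174 CPM, a crypt level that went from 101 ± 50.3 to 125 ± 52.4 CPM and a difference of 1.90 (adjusted p = 8.3e-06). *Gsta2* differed by 1.68 (adjusted p = 2.12e-05), its crypt level being 273 ± 127 CPM without and 333 ± 70.2 CPM with exposure. *Cxcl14*, *Ccl20* and *Sectm1b* were the other genes of this set, with differences of 2.27, 2.77 and 2.90. Such a positive difference is not by itself a rise in the villus. *Sectm1b* fell in both compartments, by -4.81 in the villus and -7.03 in the crypt on the log2 scale. In the villus, *Cxcl14* (log2 fold change -0.24, adjusted p = 0.755) and *Ccl20* (log2 fold change 1.60, adjusted p = 0.259) did not pass, and a rise of *Ccl20* is neither shown nor excluded. All 6 that responded more negatively in the villus were pancreatic enzyme genes, *Cpb1*, *Cela2a*, *Try4*, *Amy2a4*, *Pnlip* and *Cpa1*, and the acinar marker sum was 18.4 to 42687 CPM in the untreated and 3292 to 52271 CPM in the exposed crypts; its part in these calls was not tested. *Pck1* and *Sgk1* did not pass in either fit, and their log2 fold changes in the crypt were -6.68 and -3.22.

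After 90 days of exposure, called day 91, the villus response was again set against its own controls, 4 untreated and 5 exposed villi, and the difference from day 8 was tested. It passed for 247 genes, 1.30%, of which 213 were more positive and 34 more negative at day 91. With DESeq2 size factors in place of the trimmed mean it passed for 133, 82 more positive and 51 more negative, and with the legacy form of the fit for 822. Over all probes the difference had a median of 0.32, and the untreated villi of day 91 were shallow, at 1667014 to 2678299 counts, so a gene is read against that shift. Some of the genes named above did not pass for a difference between the times: *Pck1* differed by 0.21 (SE 0.78) and *Abcb1a* by 0.03 (SE 0.43), both with an adjusted p of 1, and *Pck1* went from 805 ± 482 to 15.8 ± 11.7 CPM at day 91.

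The glucocorticoid-inducible pair differed between the times. *Tsc22d3* stood at 143 ± 42.0 CPM in the untreated and 108 ± 43.2 CPM in the exposed villi of day 91, a log2 fold change of -0.40 beside -2.54 at day 8, and the difference was 2.14 (adjusted p = 0.0137). *Sgk1* was -1.64 at day 91 beside -4.55 (difference 2.91, adjusted p = 0.0642) and lost its call in 8 of 18 alternative settings. *Herpud1* was 0.02 beside -2.15 (difference 2.16, adjusted p = 0.009), *Angptl4* 1.13 beside -1.96 (difference 3.09, adjusted p = 0.0136) and *Hspa1b* 2.18 beside -2.95 (difference 5.13, adjusted p = 0.00917). These 5 were named for their fall at day 8, which enters the difference, so a positive difference was favoured by the choice. They are shown because they passed, as did *Cxcl14* (1.65) and *Syvn1* (1.06) among the named genes.

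By the rule of the smallest adjusted p of the difference, the genes more positive at day 91 were the immunoglobulin light chain segments *Igkv8-28* and *Igkv8-30*, which are near-identical to others of their family, the HSP90 co-chaperone *Chordc1*, the growth factor carrier *Igfbp3*, the hydroxylase *Jmjd6* and *Mat2a*, which makes S-adenosylmethionine. *Igfbp3* fell at day 8, measuring 199.7, 143, 160.2, 289 and 99.8 CPM in the control villi and 31.5, 58.4, 72.9 and 46.9 CPM in the exposed villi, and was 3.37-fold lower (log2 fold change -1.75, SE 0.32, adjusted p = 4.95e-05). At day 91 it was 0.60 (difference 2.35, adjusted p = 0.0025). *Igkv8-28* was -1.95 at day 8 and 1.62 at day 91 (difference 3.57, adjusted p = 0.00128). *Chordc1*, *Jmjd6* and *Mat2a* did not pass at day 8, at -0.38, -0.12 and -0.28, and were 1.66, 2.22 and 1.32 at day 91. The genes more negative at day 91 were *Tmem110* (difference -4.18), *Cmpk2* (-2.35), *Bcl2l2* (-2.11), *Sh3gl2* (-2.37), *1810009A15Rik* (-1.35) and *Degs2* (-2.40).

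**Figure D5:**
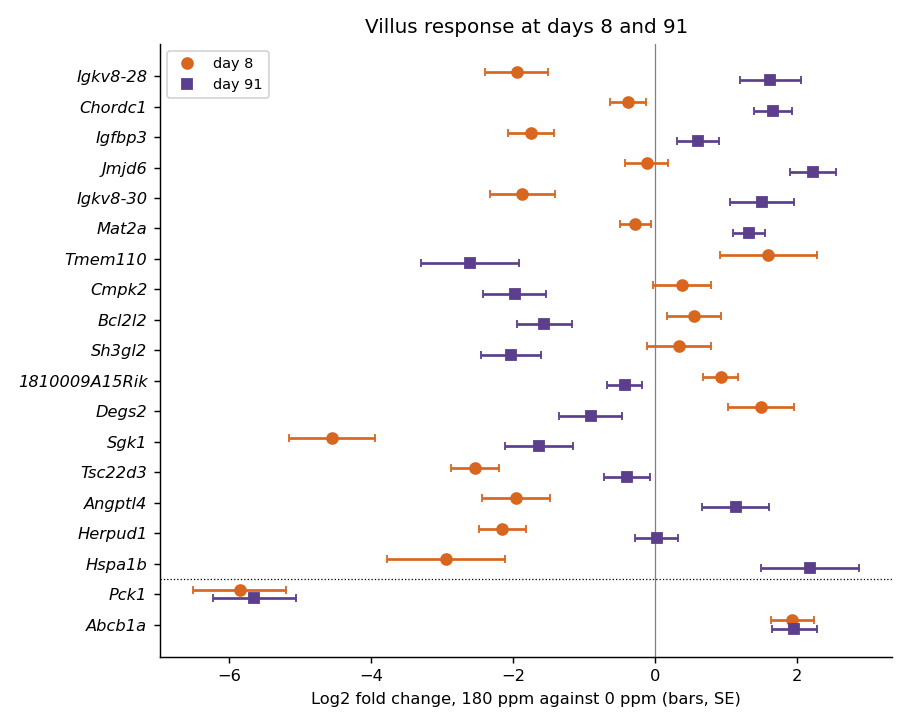
Log2 fold change at 180 ppm with its standard error in the villus at day 8 (circles) and day 91 (squares), each against its own 0 ppm group. The 12 genes of the rule for the difference between the days and 5 others that passed stand above the dotted line and 2 that did not pass stand below it; *Tsc22d3* is at -2.54 at day 8 and -0.40 at day 91, and *Pck1* at -5.85 and -5.64.

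Genes with a further probe in the assay gave a second reading of the same libraries. Of 150 called genes named by the rules and lists, 63 had at least 1 other tested probe, and 77 of these 84 probes had the same direction, 45 passed and 0 passed in the opposite direction.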

How the data were processed

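TempO-Seq libraries were read from the deposited table of counts, in which the authors gave the raw number of reads per probe and library. Per the submitters' processing notes, reads were demultiplexed with bcl2fastq 2.17.1.14 and aligned with Bowtie; the genome build of the probes is not given in the sources used here. Each library is a single mouse. All libraries of the series, in 28 groups, entered a single fit, with trimmed mean scaling and filterByExpr. The fit was glmQLFit of edgeR 4.0.16 in R 4.3.3 with legacy = FALSE, which estimates a quasi-likelihood dispersion per probe. The p values of its quasi-likelihood test were adjusted by Benjamini-Hochberg over 26365 probes, with a threshold of 0.1. Fold changes of probes with low counts were shrunk with a prior count of 2. A printed SE is the size of the shrunken log2 fold change divided by the square root of the F statistic. A gene with several probes is represented by the probe with the most counts. Differences between compartments and between days were interactions in the same fit. Marker sums were compared with an exact permutation test over 126 arrangements. A group at 0 was set to a floor of 3 counts per library; this floor covers counting error only.

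The genes named are the 10 higher and 10 lower with the smallest adjusted p among those with separate groups and a mean of at least 10 CPM, the 5 called genes with the smallest adjusted p in each of 27 lists, and 6 in each direction for the compartments and the days; others were named after their values were seen, and some genes that these rules name are not reported here. The members and lists were chosen with earlier results of these data known, and 8 lists were added after the values had been seen. Gene coordinates are from GENCODE M21 (GRCm38) and promoters from RefSeq, matched by symbol.

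The crypt and villus libraries of 1 mouse carry its number, so the numbers pair them by design: over 8962 probes, deviations from the group means had a median correlation of 0.202 in the 9 pairs from the same mouse (0.0183 to 0.639) and of -0.0725 in 36 pairs of different mice.

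The fit was tested on simulated counts for this comparison, with 200 of 26365 probes changed: 73 of 100 changed 4-fold and 21 of 100 changed 2-fold were called in the right direction, and 64 of the 158 calls were unchanged probes. Alternatives used DESeq2 1.42.0 (Wald test and size factors), no filter, the legacy form of the fit with estimateDisp, counts thinned to 1463938 per library, marker covariates, smaller fits, summed probes, the mouse as a block and libraries left out in turn. Python 3.11.15 with scipy 1.17.1 made the tables.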

Additional observations from a re-analysis of the deposited data

Results flagged for a closer look

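A library stood far from the others of its group, by Dixon's test at the 95% level on CPM, in 47 of 430 groups of values tested. The rate of about 1 in 20 by chance holds for normally distributed values, which CPM need not be. Values of the same library are not independent either. A gene at 0 in all but 1 library of a group is flagged whatever its level, as with *Anxa10* and *Gm2663*. Far, below, means flagged in this way. Among marker sums these were crypt stem and progenitor cell markers in the control villus of mouse 48 (801 CPM), tuft cell markers in the exposed villus of mouse 526 (75.7 CPM), Brunner gland markers in the control villus of mouse 46 (203 CPM) and fibroblast markers in the control villus of mouse 48 (1170 CPM). Of single genes, the control villus of mouse 48 lay far from the other controls in *Anxa10* (2.16 CPM), *Bcl2l2* (12.1 CPM), *Btnl4* (759 CPM), *Cyp2b10* (321 CPM), *Eif1ax* (455 CPM), *Eif5a* (1122 CPM), *Enpp3* (241 CPM), *Fcer1a* (4.32 CPM), *Gm2663* (1.89 CPM), *Hnf4a* (109 CPM), *Hspa4* (655 CPM), *Klf4* (28.6 CPM), *Psmc1* (238 CPM), *Rpl4* (2458 CPM), *Rps12* (590.0 CPM), *Slc6a20a* (176 CPM) and *Vdr* (258 CPM). That of mouse 46 did so in *Duox2* (17.7 CPM). Mouse 47 did so in *Hmox1* (6.03 CPM). Mouse 50 differed from them in *G6pc* (33.8 CPM) and *Plin2* (392 CPM). Of the exposed villi, that of mouse 526 lay far from the rest in *Anxa13* (2105 CPM), *Atp5k* (210.3 CPM), *G6pc* (6.55 CPM), *Gsta4* (493 CPM), *Hspa1b* (7.54 CPM), *Lct* (0.983 CPM), *Mrps36* (203 CPM), *Rpl19* (356 CPM), *Rpl4* (2026 CPM), *Slc7a7* (97.0 CPM) and *Zbtb16* (13.1 CPM). Mouse 528 did in *Mcpt1* (494 CPM), *S100a16* (21.3 CPM) and *Slc15a1* (40.4 CPM). Mouse 529 was the far value in *Cyp2b10* (70.7 CPM), *Herpud1* (53.6 CPM), *Mvd* (1.49 CPM), *Per3* (21.9 CPM) and *Pfkfb3* (15.99 CPM). Mouse 530 was far from the other exposed villi in *Il1rl1* (33.7 CPM), *Nqo1* (43.8 CPM) and *Treh* (81.8 CPM).

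The response to 180 ppm differed between villus and crypt, by the interaction in edgeR, in *Plin2* (1.89 on the log2 scale, adjusted p = 0.0102). It differed between day 91 and day 8, by the same kind of test at an adjusted p below 0.1, in 19 genes named in the text. The difference, day 91 minus day 8 on the log2 scale, was 3.09 for *Angptl4*, 2.03 for *Chordc1*, 1.65 for *Cxcl14*, 2.16 for *Herpud1*, 5.13 for *Hspa1b*, 2.35 for *Igfbp3*, 3.57 for *Igkv8-28*, 3.37 for *Igkv8-30*, 2.34 for *Jmjd6*, 1.59 for *Mat2a*, 2.91 for *Sgk1*, 1.06 for *Syvn1* and 2.14 for *Tsc22d3*. In the other direction it was -1.35 for *1810009A15Rik*, -2.11 for *Bcl2l2*, -2.35 for *Cmpk2*, -2.40 for *Degs2*, -2.37 for *Sh3gl2* and -4.18 for *Tmem110*.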

How the results depend on the processing

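At 2405384 to 4054136 counts per library and 4 against 5 mice, a 2-fold change was seldom called in simulated counts. The number of changed genes, 1389, was 912 at a threshold of 0.05, 670 in a fit of the 9 libraries alone, 674 in a fit of the villus libraries of day 8, 2059 with DESeq2, and 960 (without mouse 528) to 1675 (without mouse 48) with a library left out. It was 1174 without mice 48 and 49, a choice made after seeing the data. Of the 142 called genes named for this comparison, 119 to 142 kept their call in each of the 20 alternatives (the fit of the 9 libraries tested 138 of them), and 131 of all 185 named genes, called or not, stayed on their side of the threshold with their direction in all of them. *Cct2*, *Heph*, *Nfkbia* and *Plk2* lost their calls in 7 of 20 alternatives each. Of 700 counts of list members, 579 stayed within 1.5 times.

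The villus and crypt comparison, with 1 gene, gave 96 with DESeq2, 3 with the legacy form, 5 with thinned counts, 2 with marker covariates, 2 with summed probes, 0 without mice 48 and 49, and 1 to 11 with a library left out (11 without mouse 48, 10 without 529, 5 without 528, 4 without 50, 3 without 526 or 530). With the mouse as a replicate block, which pairs the compartments, 170 genes passed; the villus comparison itself has no pairs. The day comparison, with 247 genes, gave 90 at a threshold of 0.05, 133 with DESeq2 size factors, 690 with DESeq2, 135 without a filter, 822 with the legacy form, 399 with thinned counts, 121 with covariates, 108 with summed probes, 83 without mice 48 and 49, and 48 to 330 with a library left out (48 without mouse 526, 94 without 48, 122 without 528, 162 without 46). The cause of these changes was not tested.

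Genes near 0 that passed in no alternative changed sign. *Cdkn1a* was -0.01 with DESeq2 or its size factors, -0.38 with covariates, -0.07 without mice 48 and 49 and -0.35 to 0.31 with a library left out. *Hnf4a* was 0.03 without a filter, 0.00 in the fit of 9 libraries, 0.04 with summed probes and -0.14 to 0.18 with a library left out. *Srxn1* was 0.01, 0.05 and -0.26 to 0.24, and *Xbp1* 0.00, 0.09 and -0.23 to 0.17, without a filter, with summed probes and with a library left out, *Xbp1* being also 0.03 with thinned counts and 0.04 without mice 48 and 49. *Try4* was 0.21 with covariates, 0.56 without mice 48 and 49 and -1.57 to 0.42 with a library left out. *Slc11a2* was -0.05 with covariates and -0.15 to 0.51 with a library left out. With a library left out, *Klf4* ran from -0.62 to 0.02, *Mki67* from -0.65 to 0.07, *Pgk1* from -0.03 to 0.54 and *Mttp* from -0.22 to 0.01.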

Other observations

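Several gene groups outside the lists above also moved. They were chosen after their values had been seen, so their counts are descriptions. Over all genes, 2.82% were called higher and 3.67% lower. Genes of mast cells had 3 of 14 tested members higher and 0 lower, and 10 had a positive and 3 a negative log2 fold change. Beside *Mcpt1*, the related protease *Mcpt2* measured 0, 3.02, 8.09, 0 and 0 CPM in the control villi and 15.1, 109.9, 71.4 and 59.7 CPM in the exposed villi, without overlap, and was 21.7-fold higher (log2 fold change 4.44, SE 0.74, adjusted p = 4.73e-06). *Il1rl1*, the receptor of the alarmin IL-33, measured 5.23, 10.4, 2.70, 17.4 and 11.3 CPM in the control villi and 77.3, 74.8, 71.8 and 33.7 CPM in the exposed villi, and was 6.68-fold higher (log2 fold change 2.74, SE 0.57, adjusted p = 0.000431). The mast cell receptor gene *Fcer1a* (log2 fold change 1.82, adjusted p = 0.293) and the protease *Cpa3* (log2 fold change 1.66, adjusted p = 0.234) did not pass. *Cpa3* passed without mouse 48, at 2.88 (adjusted p = 0.0511). The 3 negative members did not pass either: *Ms4a2* (-2.36, adjusted p = 0.34), *Tpsb2* (-1.97, adjusted p = 0.352) and *Cma1* (-0.76, adjusted p = 0.681). *Kit* was at 0.15 (adjusted p = 0.983). Without mouse 48 or mouse 530, 5 members were higher.

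In a list of 20 genes of intraepithelial lymphocytes, which shares members with the T cell markers of the report, 11 were lower and 0 higher. *Nkg7*, of cytotoxic granules, was 5.07-fold lower (log2 fold change -2.34, SE 0.50, adjusted p = 0.00068). Of the butyrophilin-like genes, epithelial proteins that bind receptors of gamma delta T cells, 3 of 5 were lower: *Btnl2* measured 609, 675, 293, 699.9 and 470.4 CPM in the control villi and 193, 149, 191 and 174 CPM in the exposed villi, with no overlap, and was 3.10-fold lower (log2 fold change -1.63, SE 0.26, adjusted p = 2.51e-06), *Btnl4* was 2.20-fold lower (log2 fold change -1.14, SE 0.23, adjusted p = 0.000297) and *Btnl6* was 2.15-fold lower (log2 fold change -1.11, SE 0.29, adjusted p = 0.0108).

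Genes known to respond to glucocorticoids had 4 of 10 members lower and 0 higher, *Zbtb16* being 6.54-fold lower (log2 fold change -2.71, SE 0.78, adjusted p = 0.0229) and *Nfkbia* 2.10-fold lower (log2 fold change -1.07, SE 0.34, adjusted p = 0.0552) beside *Sgk1* and *Tsc22d3*. The 6 other members of this list did not pass. *Fkbp5* was at -0.07, *Per1* at 0.24, *Dusp1* at 0.20 and *Errfi1* at 0.32 on the log2 scale (adjusted p from 0.733 to 0.996). *Klf9* and *Cebpd* were at -1.56 and -1.20 (adjusted p = 0.273 and 0.111). Leaving out mouse 46, 528 or 530 left 2 called members. Ligands of the EGF receptor family had 2 of 8 higher: *Nrg1* measured 7.25, 4.69, 9.44, 7.66 and 16.8 CPM in the control villi and 104, 91.9, 94.1 and 39.5 CPM in the exposed villi, and was 8.17-fold higher (log2 fold change 3.03, SE 0.51, adjusted p = 8.86e-06), and *Areg* was 5.63-fold higher (log2 fold change 2.49, SE 0.59, adjusted p = 0.0033).

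Simple epithelial keratins had 4 of 6 members higher. *Krt19*, a keratin of crypt and base, measured 276, 115, 588, 167 and 305 CPM in the control villi and 1859, 1276, 718 and 466 CPM in the exposed villi, with the control of mouse 48 inside the exposed range, and was 3.70-fold higher (log2 fold change 1.89, SE 0.35, adjusted p = 5.47e-05). *Krt8* measured 2397, 2450.2, 2287, 2526 and 2844 CPM in the control villi and 5685, 6125, 4491 and 4641 CPM in the exposed villi, without overlap, and was 2.09-fold higher (log2 fold change 1.07, SE 0.23, adjusted p = 0.000923). *Krt18* was 2.56-fold higher (log2 fold change 1.35, SE 0.26, adjusted p = 0.000168) and *Krt7* was 3.64-fold higher (log2 fold change 1.86, SE 0.43, adjusted p = 0.00211), while *Krt20*, of the villus tip, did not pass (log2 fold change -0.52, adjusted p = 0.389). Of 13 S100 genes, 3 were higher and 1 lower: *S100a6* was 4.63-fold higher (log2 fold change 2.21, SE 0.34, adjusted p = 1.57e-06), *S100a16* was 3.37-fold higher (log2 fold change 1.75, SE 0.48, adjusted p = 0.0153), and *S100g*, the calcium carrier calbindin-D9k, measured 5042, 10142, 379.6, 2005 and 2929 CPM in the control villi and 691, 511, 722 and 616 CPM in the exposed villi and was 6.45-fold lower (log2 fold change -2.69, SE 0.91, adjusted p = 0.0768). The control of mouse 48 lay below every exposed villus in *S100g*, which lost its call in 9 of 20 alternative settings. Of 12 annexins, 3 were higher: *Anxa13* was 3.51-fold higher (log2 fold change 1.81, SE 0.32, adjusted p = 2.89e-05), *Anxa2* was 1.77-fold higher (log2 fold change 0.83, SE 0.23, adjusted p = 0.0171), and *Anxa10*, of the stomach, measured 0, 0, 2.16, 0 and 0 CPM in the control villi and 47.5, 21.9, 30.1 and 9.19 CPM in the exposed villi and was 26.2-fold higher (log2 fold change 4.71, SE 0.89, adjusted p = 7.7e-05).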
